A study of Mus musculus with 30 samples.

Results

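The libraries described here are the 8 RNA sequencing libraries of mouse marrow cells that carry a catalytically inactive Tet2 (Mut), out of 24 RNA sequencing libraries and 30 samples in the series. They were picked by their labels, with earlier results of these data known. Those of mice aged 9 and 12 months were set against those of mice aged 3 and 6 months, with 4 libraries on each side. Each side holds 2 cell fractions at 2 ages, with 1 library for each fraction and age. The LSK fraction was sorted for Sca1 and cKit among cells without mature lineage markers and is the usual source of blood stem and early progenitor cells. The Lin-negative fraction is the wider population that lacks those lineage markers. All mice are labelled Mixed 129/C57BL/6, no treatment is labelled, and the marrow of 3 mice was pooled for sorting. Mice with normal Tet2 (WT) or without Tet2 (KO) gave 8 libraries each with the same fractions and ages. They enter only the comparisons between genotypes. The labels do not name the allele, and no cell type-restricted deletion is stated.

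Tet2 oxidises 5-methylcytosine in DNA, a step towards removing the mark. The Mut protein lacks this activity, whereas the KO lacks the protein, so that the Mut animals separate the enzyme's catalysis from its other functions. Tet2 is among the genes most often mutated in the age-related clonal expansion of human blood stem cells, and its loss in mice enlarges the stem and myeloid compartments. With age, mouse marrow is known to make fewer B lymphocytes and to keep long-lived plasma cells.

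The 8 Mut libraries held 33800246 to 47713130 reads. Values are read counts divided by a size factor for each library, called normalized reads below, for 16070 genes. Sorting was checked against marker genes. Between the LSK and Lin-negative libraries of Mut mice, compared within each age, 0 of 15755 genes passed the threshold (limma, Benjamini-Hochberg adjusted p under 0.05), with 1685 at an unadjusted p under 0.05, and 0 of 10 stem and progenitor markers passed. Ly6a, which encodes Sca1, was at 298 to 2178 normalized reads in LSK libraries and 680.1 to 2420 in Lin-negative libraries. It was lower in the LSK library at all 4 ages, against the label. Kit, the other gene of the sort, was at 3268 to 5190 in LSK and 2986 to 4574 in Lin-negative libraries and was higher in the LSK library at all 4 ages, as were the receptor gene Flt3 and the stem cell transcription factors Hlf and Meis1. Ltf and S100a8, which maturing neutrophils make in quantity, were at 236406 to 400220 and 230556 to 519574 normalized reads over the 8 libraries. The 2 fractions are therefore named by their labels only. Xist, which is made in female cells, was at 3.77 normalized reads in the LSK library at 3 months and 5846 in the Lin-negative library of that age, so these 2 libraries did not come from the same mix of mice.

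Libraries differed from age to age more than from fraction to fraction. Over all genes tested, the log2 difference between the 2 fractions of an age had an SD of 0.383 to 0.657 in the 4 pairs. Between libraries of different ages on the same side it was 0.691 to 0.919 in 8 pairs, and across the sides it was 0.673 to 0.918 in 16 pairs. The ranges for libraries of 1 side and for libraries of opposite sides overlapped almost entirely. The labels do not say that the libraries of an age came from separate mice, so the p-values below treat the 2 fractions of an age as replicates and measure the spread between these libraries only.

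**Figure D1:**
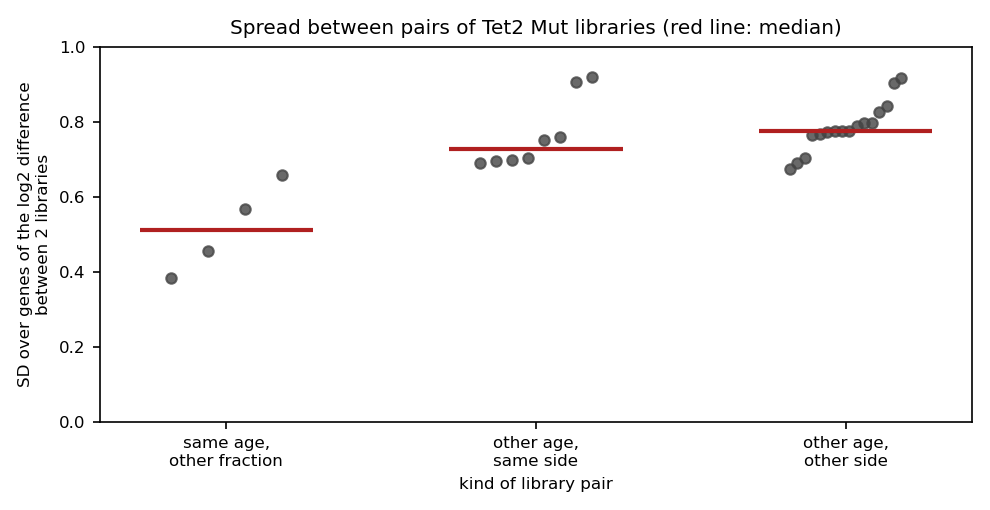
Spread of gene expression between pairs of Mut libraries. Each point is 1 pair, the y axis gives the SD over 15755 genes of the log2 difference between its 2 libraries, and the red line is the median of each kind of pair (0.512, 0.729 and 0.776 from left to right). Pairs from 1 age lie lowest, and pairs from the same side or from opposite sides overlap.

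Against this spread, 54 of 15755 genes (0.343%) passed the threshold between the late side (9 and 12 months) and the early side (3 and 6 months). Of these, 49 (0.311%) were higher and 5 (0.0317%) were lower on the late side. This split depended on the fit: DESeq2 called 418 higher and 315 lower, a slope over age 18 and 20, the fit without the 9-month libraries 84 and 319, and that without the 12-month libraries 1056 and 2245. The genes that rose included 5 of erythroid cells, 2 of plasma cells besides 6 immunoglobulin variable segments, 4 known from activated T cells, and a group that was at or near 0 in the early libraries. Those that fell included genes of eosinophils, plasmacytoid dendritic cells and macrophages. In all 54, both late libraries lay beyond both early libraries in each fraction. Over all genes tested, 1273 lay higher and 1190 lower in this way. An unadjusted p under 0.05 was reached by 2398 genes, and the median log2 difference of all genes was -0.01. The count rested on every library: it was 0 without the Lin-negative library at 12 months, 1 or 2 without the LSK or the Lin-negative library at 9 months, and 7 to 21 without any of the other 5. With age as a random block, which treats the 2 libraries of an age as related, 11 genes passed, all among the 54: Cd5l, Ccr3, Jchain, Hbb-bt, Tnfrsf4, Ccr8, Muc16, Ndrg4, Cemip, Vwde and AI593442. The sides differ only between ages, and the p-values of this fit still count libraries rather than ages. With the mean of both fractions per age, which counts ages, 0 genes passed.

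**Figure D2:**
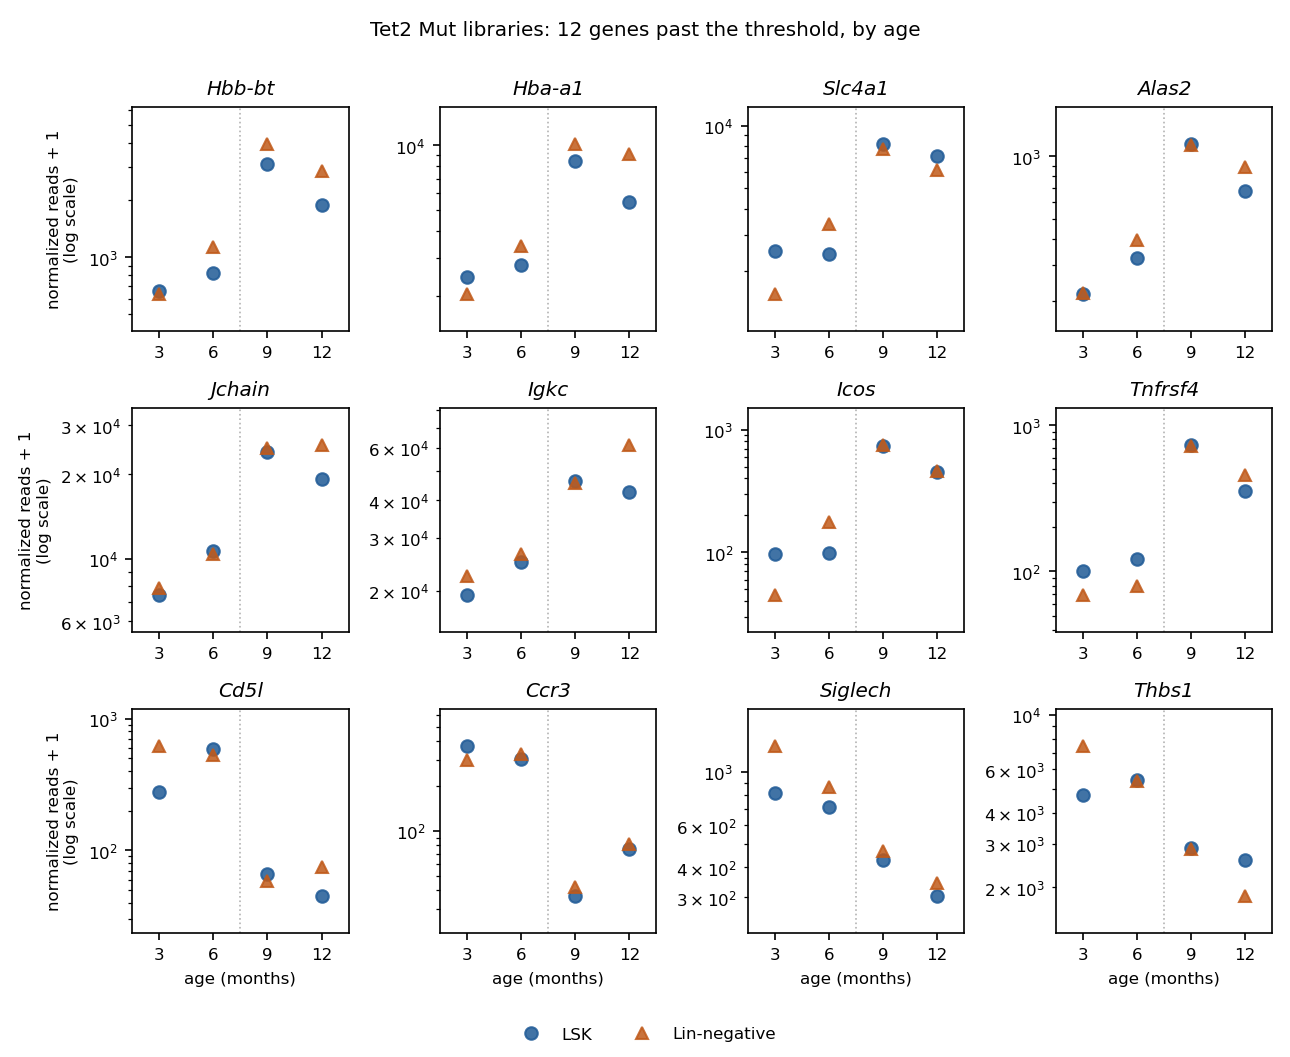
Normalized reads plus 1 (log scale) of 12 genes past the threshold in the 8 Mut libraries, by age in months. Circles are LSK and triangles Lin-negative libraries, and the dotted line divides the early from the late side. In every panel all 4 late points lie on one side of all 4 early points, and for Hbb-bt the points at 9 months lie above those at 12 months.

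Genes of haemoglobin and the red cell membrane rose. Hbb-bt, an adult beta-globin gene, was at 660.2, 821, 3121 and 1893 normalized reads in LSK libraries at 3, 6, 9 and 12 months and at 639, 1123, 3956 and 2858 in Lin-negative libraries. The late libraries did not overlap with the early ones, and they were highest at 9 months. Its log2 difference was 1.85 ± 0.23 (SE), adjusted p = 0.02. Hba-a1, an alpha-globin gene, was at 2470, 2783, 8443 and 5462 in LSK and 2059, 3407, 10099 and 9077 in Lin-negative libraries, a log2 difference of 1.61 ± 0.20 (SE), adjusted p = 0.02. Both globin genes have a near-identical copy, and how reads matching both copies were counted is not given in the sources used here. The copies Hba-a2 and Hbb-bs had log2 differences of 1.44 and 1.93 that missed the threshold (adjusted p = 0.078 and 0.078). Alas2, the erythroid form of the enzyme that starts haem synthesis, was at 217, 323, 1141 and 681 in LSK and 218, 394, 1124 and 887 in Lin-negative libraries (1.75 ± 0.24 (SE), adjusted p = 0.0327). Slc4a1, the anion exchanger of the red cell membrane, was at 2503, 2428, 8163 and 7152 in LSK and 1564, 3370, 7692 and 6152 in Lin-negative libraries (1.61 ± 0.21 (SE), adjusted p = 0.0267). For these 4 genes every late library was above every early one. Outside the list, the haem-binding gene Hebp1 rose by 0.76 on the log2 scale.

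The promoters of 3 of these genes are shown because the genes rose together. Each line gives the 200 bases before the start of the gene (RefSeq, GRCm38.p6), read in the direction of transcription. Capitals mark CACCC or its complement GGGTG, the core of the site bound by Klf1, and AGATAA or its complement TTATCT, a form of the site bound by Gata1. The windows are chr7:103813924-103814123 for Hbb-bt (minus strand), chr11:32283472-32283671 for Hba-a1 (plus strand) and chrX:150547217-150547416 for Alas2 (plus strand).
Hbb-bt: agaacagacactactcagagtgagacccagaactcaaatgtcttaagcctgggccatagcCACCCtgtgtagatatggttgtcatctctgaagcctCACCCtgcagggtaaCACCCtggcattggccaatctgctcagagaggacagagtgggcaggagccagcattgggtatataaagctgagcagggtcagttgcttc
Hba-a1: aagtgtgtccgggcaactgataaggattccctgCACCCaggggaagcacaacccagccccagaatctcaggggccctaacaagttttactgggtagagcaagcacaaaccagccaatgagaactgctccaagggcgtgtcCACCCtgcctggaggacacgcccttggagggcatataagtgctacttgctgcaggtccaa
Alas2: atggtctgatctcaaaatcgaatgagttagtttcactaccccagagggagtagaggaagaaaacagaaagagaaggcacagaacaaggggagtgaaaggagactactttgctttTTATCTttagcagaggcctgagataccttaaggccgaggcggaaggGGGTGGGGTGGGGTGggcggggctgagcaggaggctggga
CACCC or GGGTG occurred 3 times before Hbb-bt, 2 times before Hba-a1 and 3 times, in 1 unbroken run, before Alas2. It was present in 45.5% of all 32851 promoter windows of this length, and AGATAA or TTATCT, found here before Alas2 only, in 7.8%. Other forms of the Gata1 site were not searched for or marked.

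Across the erythroid list, 5 of 23 genes passed and all 5 rose, where 0.311% of all genes did. With age as a random block, Hbb-bt was the only one of the 5 that passed (adjusted p = 0.0451, against 0.0937 for Hba-a1, 0.0645 for Alas2 and 0.133 for Slc4a1). The list's median log2 difference was 0.59 (all genes, -0.01), and 22 of 23 estimates were above 0 (all genes, 49.4%). Klf1 and Gata1, transcription factors of the lineage, had differences of 0.25 and 0.26 (adjusted p = 0.535 and 0.431). The summed level of the list, with the 5 genes that passed included, was 72099 to 95642 normalized reads in early libraries. In late libraries it was 113411 to 133568, without overlap. In these pools more erythroid cells and more RNA per cell cannot be told apart. The count of 5 was 0 without the LSK library at 3, 6 or 9 months, or without the Lin-negative library at 9 or 12 months, and 2 without the Lin-negative library at 3 months or the LSK library at 12 months.

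Genes of antibody-secreting cells formed the second group. Jchain, which joins antibody subunits into multimers, was at 7445, 10649, 23981 and 19192 normalized reads in LSK libraries at 3, 6, 9 and 12 months and 7850, 10446, 24847 and 25454 in Lin-negative libraries. Every late library was above every early one, and the log2 difference was 1.37 ± 0.15 (SE), adjusted p = 0.0144. Igkc, the constant region of the kappa light chain, was at 19359, 25001, 46338 and 42614 in LSK and 22397, 26503, 45839 and 61253 in Lin-negative libraries, again without overlap (1.07 ± 0.14 (SE), adjusted p = 0.0306). Of the plasma cell list, 2 of 14 genes passed and both rose, where 0.311% of all genes did, and the median was 0.29. With age as a random block Jchain passed and Igkc did not (adjusted p = 0.0451 and 0.167). The transcription factor Xbp1 and the surface marker Sdc1 had differences of -0.05 and 0.02 (adjusted p = 0.857 and 0.966). The list's summed level was 56583 to 83003 normalized reads in early and 84682 to 112712 in late libraries. This sum includes the high values of Jchain and Igkc, so it is no separate support for a rise of the list. The count of 2 was 0 without either library at 3 or 9 months or the Lin-negative library at 12 months, and 1 without any of the other 3. Another 6 genes past the threshold were variable segments of immunoglobulin chains, whose reads can be shared among near-identical segments. At 9 months alone, the IgG3 constant region Ighg3 was at 8005 (LSK) and 7910 (Lin-negative) normalized reads, against 291 to 421 in the 6 libraries of the other ages.

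Another 4 genes that passed are known from activated T cells. They were put together after they had passed and are on no list, and of the T and NK cell list 0 of 24 genes passed. Icos, a costimulatory receptor, was at 96.2, 98.4, 740.2 and 451 normalized reads in LSK libraries at 3, 6, 9 and 12 months and 44.2, 175, 747 and 455 in Lin-negative libraries. All 4 late libraries were above all 4 early ones, those at 9 months highest, and the log2 difference was 2.63 ± 0.39 (SE), adjusted p = 0.041. Tnfrsf4, which encodes the receptor OX40, was at 99.97, 121, 729 and 355 in LSK and 68.3, 78.7, 722 and 454 in Lin-negative libraries (2.57 ± 0.28 (SE), adjusted p = 0.0144). Tnfsf11, which encodes the ligand RANKL, was at 18.9, 16.9, 105 and 97.1 (LSK) and 3.85, 15.7, 129 and 78 (Lin-negative) (2.96 ± 0.45 (SE), adjusted p = 0.0447). Ccr8, a chemokine receptor of regulatory and type 2 helper T cells, was at 2.83, 12.7, 146 and 91.8 (LSK) and 3.85, 11.8, 153 and 116 (Lin-negative) (4.05 ± 0.49 (SE), adjusted p = 0.02). With age as a random block Tnfrsf4 and Ccr8 passed and Icos and Tnfsf11 did not (adjusted p = 0.0457, 0.0457, 0.178 and 0.331). The receptor genes Ctla4 and Pdcd1 and the regulatory T cell factor Foxp3, looked up after the values were seen, had differences of 3.67, 3.38 and 2.54 but missed the threshold (adjusted p = 0.0645, 0.151 and 0.0579). In each fraction both late libraries were above both early ones for all 3, and Pdcd1 at 6 months (339 and 363) was already above its level at 3 months (58.5 and 19.2).

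The T cell receptor complex itself did not separate the sides. Cd3e was at 403, 1223, 1262 and 708 normalized reads in LSK libraries at 3, 6, 9 and 12 months and 253, 1170, 1528 and 775 in Lin-negative libraries, so that the libraries at 6 months lay above those at 12 months. Its difference was 0.71 (adjusted p = 0.53). Over the 24 genes of the T and NK cell list, 18 estimates were above 0 and the median was 0.34. The summed level of the list was 8226 to 23115 normalized reads in early and 13241 to 23274 in late libraries, and no member was at 0. The part of T cell number or activation in the rise of Icos and Tnfrsf4 was not tested.

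A further group had few or no reads on the early side. By a rule set after the values were seen, below 10 normalized reads in all 4 early libraries and at least 20 in all 4 late ones, there were 13 such genes, on 9 chromosomes. The reverse pattern held for 2 genes, Enpep and Tmem108. In WT libraries the same rule found 0 and 6 genes, and in KO libraries 1 and 6. Of the 13 genes, 8 stayed below 10 in all 8 WT libraries and 3 in all 8 KO libraries. In KO, Muc16 was at 2.24 to 34.1 in early and 11.8 to 33.4 in late libraries. Ecel1 was at 0 to 17.1 in early and 12.6 to 34.5 in late KO libraries, so that the KO sides overlapped for both genes. Of the 13, 10 passed the limma threshold: AI593442, Cemip, Ndrg4, Tshz2, Akap6, Ecel1, Muc16, Dgki, Ccn4 and Apol7b. Over all genes 0.311% passed higher. The rule chose the 13 by the same early and late values that limma compared, so this count is no separate support. Cemip, which encodes a protein that binds and breaks down hyaluronan, had 0 reads in all 4 early libraries. Late, it was at 145 and 77.7 normalized reads in LSK and 101 and 60.1 in Lin-negative libraries at 9 and 12 months. Taking 3 reads in each early library as the limit that a count of 0 allows, its late mean was at least 32.4-fold higher. AI593442, also at 0 in every early library, was at 192 and 70.6 (LSK) and 174 and 43.9 (Lin-negative), at least 40.6-fold higher. Krt17, a keratin gene, and Vat1l, also named after their values were seen, passed the threshold and were at 0 in every early library, but fell short of 20 in a late one. Their late ranges were 16.2 to 126 and 17.9 to 125 normalized reads, at least 24.4-fold and 24.1-fold higher. These limits cover counting error only, and the genes were chosen by these same values.

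Vwde, which encodes a secreted protein with von Willebrand factor and EGF domains, had the largest rise among genes past the threshold whose mean log2 level over the 8 libraries was at least 5. Its values were 5.66, 11.6, 581 and 331 normalized reads in LSK libraries at 3, 6, 9 and 12 months and 0, 3.93, 609 and 336 in Lin-negative libraries. All 4 late libraries were far above all 4 early ones, and the log2 difference was 6.63 ± 0.63 (SE), adjusted p = 0.00751. In WT it was at 0 to 1.99 normalized reads in all 8 libraries, and in KO at 0 to 31.6. Because Tet2 acts on CpG dinucleotides, the promoter of Vwde is shown with each CG in capitals, as the 200 bases before the start in the direction of transcription (RefSeq, GRCm38.p6). The window is chr6:13224966-13225165 on the minus strand.
Vwde: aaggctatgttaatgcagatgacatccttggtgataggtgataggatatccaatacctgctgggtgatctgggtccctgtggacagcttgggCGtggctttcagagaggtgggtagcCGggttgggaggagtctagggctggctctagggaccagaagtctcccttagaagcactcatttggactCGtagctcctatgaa
Vwde has 3 CG in this window, and 89.4% of all promoter windows of this length hold at least 1. DNA methylation was not analysed here.

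Other genes that rose belong to no list. Itgb8, the integrin subunit that activates latent TGF-beta, was at 7.54, 10.6, 203 and 146 normalized reads in LSK libraries in order of age and 7.7, 27.5, 203 and 95.9 in Lin-negative libraries (3.64 ± 0.46 (SE), adjusted p = 0.0209). Lrig1, which restrains receptor tyrosine kinases, was at 135, 121, 598 and 357 (LSK) and 96.2, 139, 632 and 328 (Lin-negative) (1.91 ± 0.26 (SE), adjusted p = 0.0313). In both genes all 4 late libraries were above all 4 early ones. The pseudokinase gene Nrbp2 rose by 3.15, the phosphatase gene Ptpn5 by 3.19, Reep1, which shapes the endoplasmic reticulum, by 2.88, and Slc2a4, the insulin-responsive glucose transporter, by 2.27 on the log2 scale. Arc rose by 2.21 and was higher at 12 than at 9 months in both fractions (141 against 81.9 in LSK and 188 against 103 in Lin-negative libraries), a difference that missed the threshold (adjusted p = 0.0898). Art2a, annotated by RefSeq as a transcribed pseudogene, rose by 2.45.

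All 5 genes that fell are named here. Cd5l, a protein secreted by tissue macrophages, was at 278, 586, 65.1 and 44.1 normalized reads in LSK libraries at 3, 6, 9 and 12 months and 618, 527, 57.7 and 73.9 in Lin-negative libraries. The highest late value was below the lowest early value, and the log2 difference was -3.00 ± 0.26 (SE), adjusted p = 0.00666. Ccr3, the eotaxin receptor of eosinophils, was at 369.7, 303, 35.7 and 74.2 (LSK) and 300.1, 328, 40.8 and 81.2 (Lin-negative) (-2.55 ± 0.30 (SE), adjusted p = 0.0179), lowest at 9 months and partly higher at 12 (12 minus 9 months, 1.01 ± 0.24 (SE), adjusted p = 0.00872). Siglech, a receptor of plasmacytoid dendritic cells, was at 817, 710.2, 428 and 304 (LSK) and 1277, 861, 465 and 343 (Lin-negative) (-1.23 ± 0.19 (SE), adjusted p = 0.0452). Thbs1, which encodes thrombospondin 1 of megakaryocytes and platelets, was at 4748, 5420, 2886 and 2588 (LSK) and 7457, 5367, 2856 and 1846 (Lin-negative) (-1.18 ± 0.19 (SE), adjusted p = 0.0452). Olfml2b, an extracellular matrix gene, had the smallest and most even change, from 4022 to 4377 normalized reads in early to 2445 to 2651 in late libraries (-0.74 ± 0.08 (SE), adjusted p = 0.0144). Each of the 3 lists that hold Ccr3, Siglech and Thbs1 had no other gene past the threshold. Their medians were 0.36 for mast cells, basophils and eosinophils (18 genes), -0.04 for dendritic cells and MHC class II (20 genes) and 0.31 for megakaryocytes and platelets (19 genes).

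The late ages were then set separately against the early side. These comparisons share the early libraries, and their error is mostly the difference between the 2 fractions of an age, so the p-values measure the spread between libraries of an age and not between mice. At 9 months 5107 genes (32.4%) passed, 2287 (14.5%) higher and 2820 (17.9%) lower. At 12 months 1911 genes (12.1%) passed, 670 (4.25%) higher and 1241 (7.88%) lower. The split at 12 months depended on the test, since edgeR on recovered reads called 1142 higher and 1013 lower. Between 12 and 9 months 5256 genes (33.4%) passed, 2697 (17.1%) higher and 2559 (16.2%) lower at 12 months. The 9-month count was 1679 and 898 without the LSK or the Lin-negative library of that age, and the 12-month count was 266 without the Lin-negative library of that age. The count between 12 and 9 months was 2903 and 1448 without the LSK or Lin-negative library at 9 months and 2746 without the Lin-negative library at 12 months. Of the 54 genes above, 37 had the larger estimate at 9 months and 10 differed between the ages. Among them, Hbb-bt was lower at 12 than at 9 months by 0.60, Tnfrsf4 by 0.85 and Lrig1 by 0.84 on the log2 scale (adjusted p = 0.0108, 0.0239 and 0.0114).

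**Figure D3:**
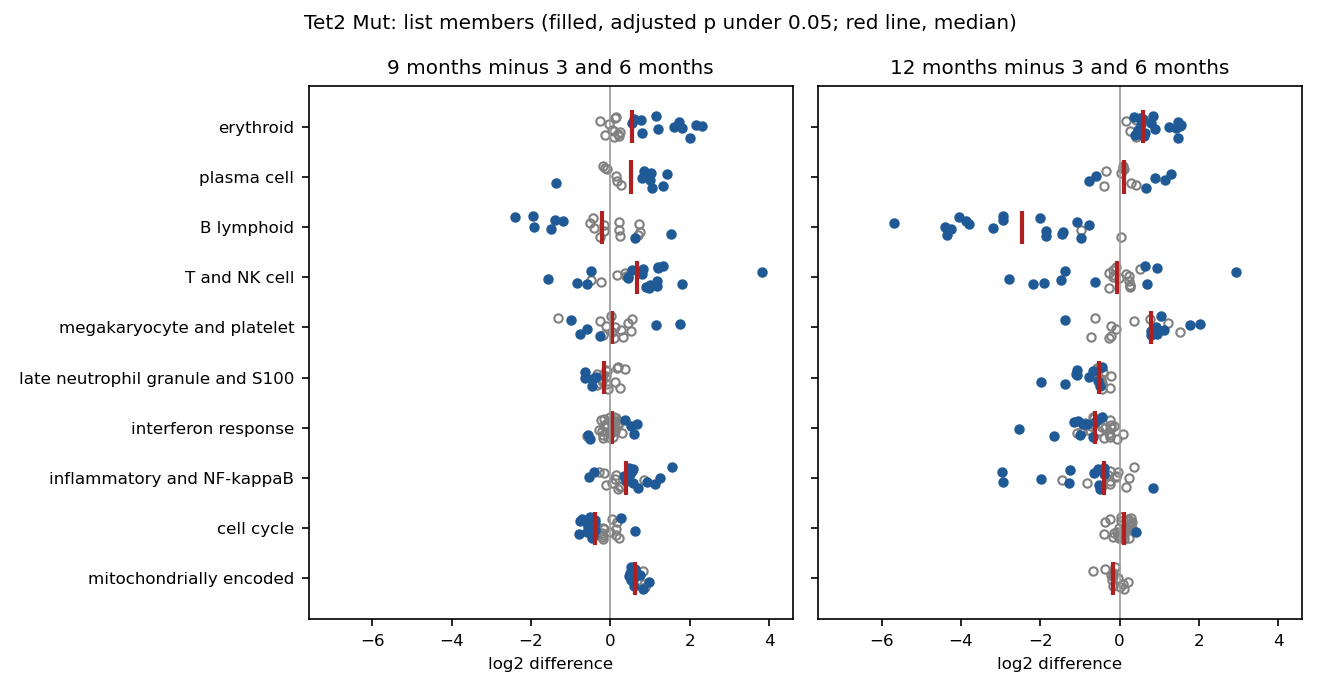
Log2 differences of the members of 10 gene lists at 9 months (left) and 12 months (right) from the early Mut libraries. Each point is a gene, filled where its adjusted p was under 0.05, and the red line is the list's median. Erythroid medians lie at 0.54 and 0.59, and B lymphoid medians at -0.21 and -2.46.

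B lineage genes fell at 12 months. Of 20 genes on the list, 18 passed lower than early at 12 months and 0 higher, with a median of -2.46 (all genes, 0.02), where 7.88% of all genes passed lower. Without the Lin-negative library at 12 months 9 passed, and without the Lin-negative library at 3 months 19 did. Pax5, the factor that commits cells to the B lineage, was at 674, 702, 659 and 21.2 normalized reads in LSK libraries at 3, 6, 9 and 12 months and 1635, 859.6, 619 and 13 in Lin-negative libraries. Only the 12-month libraries stood apart (12 months minus early, -5.68 ± 0.30 (SE), adjusted p = 1.2e-05). Vpreb1, part of the surrogate light chain of precursor cells, was at 239.5, 156, 46.2 and 9.71 (LSK) and 575, 149.5, 41.8 and 18.7 (Lin-negative), and was lower than early at 9 months too (-2.41 ± 0.33 (SE), adjusted p = 0.00065). At 9 months 6 of the 20 passed lower and 2 higher. These counts depended on single libraries: 7 passed higher without the Lin-negative library at 3 months and 4 without the LSK library at 6 months, 1 without either library at 9 months, and 11 passed lower without the LSK library at 3 months and 2 without the Lin-negative library at 9 months. Between 12 and 9 months 17 passed lower and 0 higher. Over both late ages together, 0 of 20 passed and the median was -1.37. The summed level was 11044 to 27731 normalized reads in early libraries, 13809 to 14211 at 9 months and 5709 to 5775 at 12 months.

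**Figure D4:**
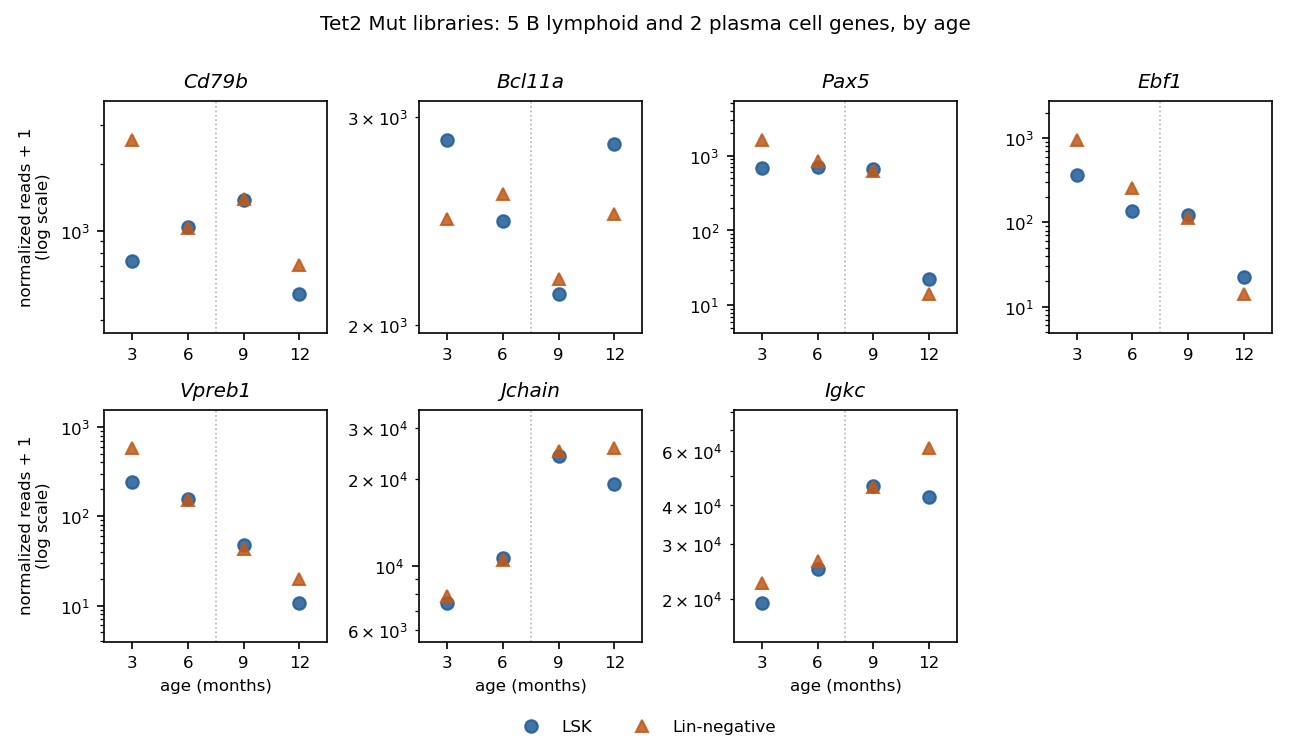
Normalized reads plus 1 (log scale) of 5 B lymphoid genes and of the plasma cell genes Jchain and Igkc in the 8 Mut libraries, by age in months. Circles are LSK and triangles Lin-negative libraries. Pax5 and Ebf1 are lowest at 12 months, whereas Jchain and Igkc are higher at 9 and 12 months than at 3 and 6.

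Other lists had different counts at the late ages. Over all genes 14.5% passed higher and 17.9% lower at 9 months, 4.25% higher and 7.88% lower at 12 months, and 17.1% higher and 16.2% lower between 12 and 9 months. Of 24 T and NK cell genes, 15 passed higher and 4 lower at 9 months, and 4 higher and 6 lower at 12 months. The share lower at 9 months was close to that of all genes. The 4 lower at 9 months became 1 without the LSK library and 2 without the Lin-negative library of that age or at 6 months, and the 4 higher at 12 months became 1 without the Lin-negative library of that age. Between 12 and 9 months 18 passed lower (7 without the Lin-negative library at 9 months, 11 without the LSK library at 9 or the Lin-negative library at 12 months) and 0 higher. Cd4 and Cd8a, the coreceptors of helper and cytotoxic T cells, were taken from the planned cell type markers after the values were seen. Cd4 was at 243, 696, 1328 and 678 in LSK and 185, 820.3, 1496 and 611 in Lin-negative libraries in order of age (9 months minus early, 1.81 ± 0.15 (SE), adjusted p = 5.9e-05). Cd8a was at 256, 1218, 382 and 127 (LSK) and 181, 1370, 321 and 105 (Lin-negative), highest at 6 months and lowest at 12 (12 months minus early, -2.18 ± 0.16 (SE), adjusted p = 5.7e-05). Of 30 cell cycle genes, 16 passed lower at 9 months and 2 higher (lower, 10 without the LSK and 3 without the Lin-negative library at 9 months). At 12 months 0 passed lower and 1 higher. Top2a, the topoisomerase of dividing cells, was at 25845, 26638, 16508 and 24928 (LSK) and 26233, 27550, 15793 and 20565 (Lin-negative), with both 9-month libraries below all others (9 months minus early, -0.72 ± 0.10 (SE), adjusted p = 0.00091). Of 25 inflammatory and NF-kappaB genes, 13 passed higher and 2 lower at 9 months, and 1 higher and 11 lower at 12 months. The 13 became 2 without either library at 9 months, and the 11 became 4 without the Lin-negative library at 12 months. Il1b, the interleukin 1 beta gene, was at 3410, 2585, 3461 and 767 (LSK) and 5086, 2451, 3602 and 891 (Lin-negative), with both 12-month libraries below all others (12 months minus early, -1.97 ± 0.12 (SE), adjusted p = 2.8e-05). Of the 13 mitochondrially encoded genes, 10 passed higher at 9 months (6 without the LSK and 0 without the Lin-negative library of that age) and 0 at 12 months. They took 0.977 to 1.12% of the reads in early libraries. In LSK and Lin-negative libraries they took 1.57 and 1.88% at 9 months and 1.05 and 0.901% at 12 months. The 9-month libraries of the other genotypes were high too, at 1.85 and 2.23% in WT and 1.73 and 2.18% in KO. At the other ages WT and KO libraries were at 0.752 to 1.08%. Whether RNA quality moved with these lists was not tested. Erythroid genes passed higher in 12 of 23 at 9 months and in 19 of 23 at 12 months (5 without the Lin-negative library at 12 months), with 0 lower at either age.

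Of the lists in this paragraph 1 gene, Thbs1, passed over both late ages together. For these lists the counts without single libraries were not computed, and they are read against the same shares of all genes. Of 33 interferon response genes, 11 passed lower at 12 months, and 4 higher and 2 lower at 9 months, with medians of -0.61 and 0.05. The shares at 9 months were below those of all genes. Of 20 genes of late neutrophil granules and S100 proteins, 10 passed lower at 12 and 5 lower at 9 months, with 0 higher at either age. Of 18 genes of lymphoid-primed progenitors, 10 passed lower at 12 and 9 lower at 9 months. Dntt, the terminal transferase that edits antigen receptor joints, was at 1182, 746, 713 and 396 normalized reads in LSK and 1295, 827, 623 and 593 in Lin-negative libraries in order of age (12 months minus early, -1.02 ± 0.15 (SE), adjusted p = 0.0017). Of 20 heat shock and protein folding genes, 12 passed lower and 3 higher at 9 months, against 0 and 2 at 12 months. Of 21 genes of glycolysis and hypoxia, 12 passed lower and 2 higher at 9 months, against 1 and 0 at 12 months. Of 24 monocyte and macrophage genes, 11 passed lower and 0 higher at 9 months, against 6 and 1 at 12 months. Of 19 megakaryocyte and platelet genes, 8 passed higher and 1 lower at 12 months, and 2 higher and 4 lower at 9 months, where neither share was far from that of all genes. Pf4, platelet factor 4, was at 143, 563, 653 and 854 (LSK) and 127, 737, 663 and 1184 (Lin-negative) (12 months minus early, 1.77 ± 0.15 (SE), adjusted p = 0.00012). Its libraries at 3 months were lowest, so that the early side was itself uneven. Of 28 ribosomal protein genes, 10 passed higher at 9 and 4 at 12 months, and 27 estimates over both ages were above 0 with a median of 0.30.

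Stem cell genes and the Tet family passed in no case over both late ages, where 0.343% of all genes passed. Of the long-term stem cell list, 0 of 20 genes passed, with 17 estimates above 0 and a median of 0.22. Of the aged stem cell list 0 of 24 passed, with a median of 0.26. At 9 months, 2 long-term genes passed higher and 2 lower, and 6 aged stem cell genes higher and 4 lower. At 12 months these counts were 4 and 1, and 4 and 2. Over all genes 14.5% passed higher and 17.9% lower at 9 months, and 4.25% and 7.88% at 12 months. For these lists the counts without single libraries were not computed. Tet2 itself was transcribed in every Mut library, at 2535, 2295, 3409 and 2185 normalized reads in LSK libraries in order of age and 1772, 2335, 3326 and 1255 in Lin-negative libraries. Its late minus early difference was 0.09 ± 0.28 (SE), adjusted p = 0.899. The 9-month libraries were highest, and at 12 months Tet2 was lower than at 9 by 1.02 (adjusted p = 0.00188). A gene count does not show whether the encoded protein is active. Tet1, Tet3, Dnmt1 and Dnmt3a had late minus early differences of -0.20, -0.10, -0.38 and -0.20, with adjusted p of 0.562, 0.795, 0.345 and 0.433.

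The age difference was compared between genotypes in a fit of all 24 libraries, beside fits within WT and within KO. Within WT, 1983 of 15679 genes (12.6%) passed between the late and early sides, 624 higher and 1359 lower. Within KO, 347 of 15589 (2.23%) passed, 50 higher and 297 lower. The sex mix of the pools differed too. An index of Y-linked genes was 0.168 to 0.917 early and 0 to 0.331 late in WT. It was 0.279 to 1 and 0.239 to 0.379 in KO, and 0.472 to 0.881 and 0.489 to 0.889 in Mut. In WT and KO it thus shifted with age, and its part in these differences was not separated from that of age. With this index as a covariate, 2 genes passed for Mut minus WT. The difference between genotypes was larger than the spread for few genes. The age difference of Mut exceeded that of WT in 7 of 16061 genes (0.0436%), all higher in Mut, with 967 at an unadjusted p under 0.05, while edgeR on recovered reads called 0 with 1025 at an unadjusted p under 0.05. Against KO, 0 genes passed (0%), with 1137 at an unadjusted p under 0.05, and edgeR also called 0, with 1167.

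The 7 genes are Cemip, AI593442, Ndrg4, Iglon5, Clip3, Tnfrsf4 and Pltp. Within Mut, 5 of them rose, and Clip3 (2.74 ± 0.47 (SE), adjusted p = 0.0571) and Pltp (-0.31 ± 0.28 (SE), adjusted p = 0.615) missed the threshold. Tnfrsf4 was at 60.6 to 99.3 normalized reads in early and 57.6 to 112 in late WT libraries, at 92.1 to 174 and 113 to 235 in KO, and at 68.3 to 121 and 355 to 729 in Mut. Only in Mut did the 2 sides not overlap for this gene, and the Mut minus WT difference of the age change was 2.73 ± 0.44 (SE), adjusted p = 0.024. Cemip was at 0 to 5.77 normalized reads in the 8 WT libraries and 0 to 10.5 in the 8 KO libraries (7.21 ± 1.08 (SE), adjusted p = 0.0134 against WT, 4.77 ± 1.08 (SE), adjusted p = 0.202 against KO). Ndrg4 and Iglon5, known mainly from nervous tissue, had Mut minus WT differences of 5.96 and 4.70, and Clip3 of 3.35. Pltp, the phospholipid transfer protein, differed in another way. It was at 287 to 349 normalized reads in early and 75.4 to 97.4 in late WT libraries, and its Mut libraries overlapped between the sides, at 265 to 503 and 207 to 384. Its Mut minus WT difference was 1.61 ± 0.29 (SE), adjusted p = 0.0461. Without the 6-month libraries 0 genes passed, without the 12-month libraries 92 did, and leaving out single libraries gave 0 to 6, with 0 without the LSK Mut library at 3 months or either Mut library at 9 months.

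**Figure D5:**
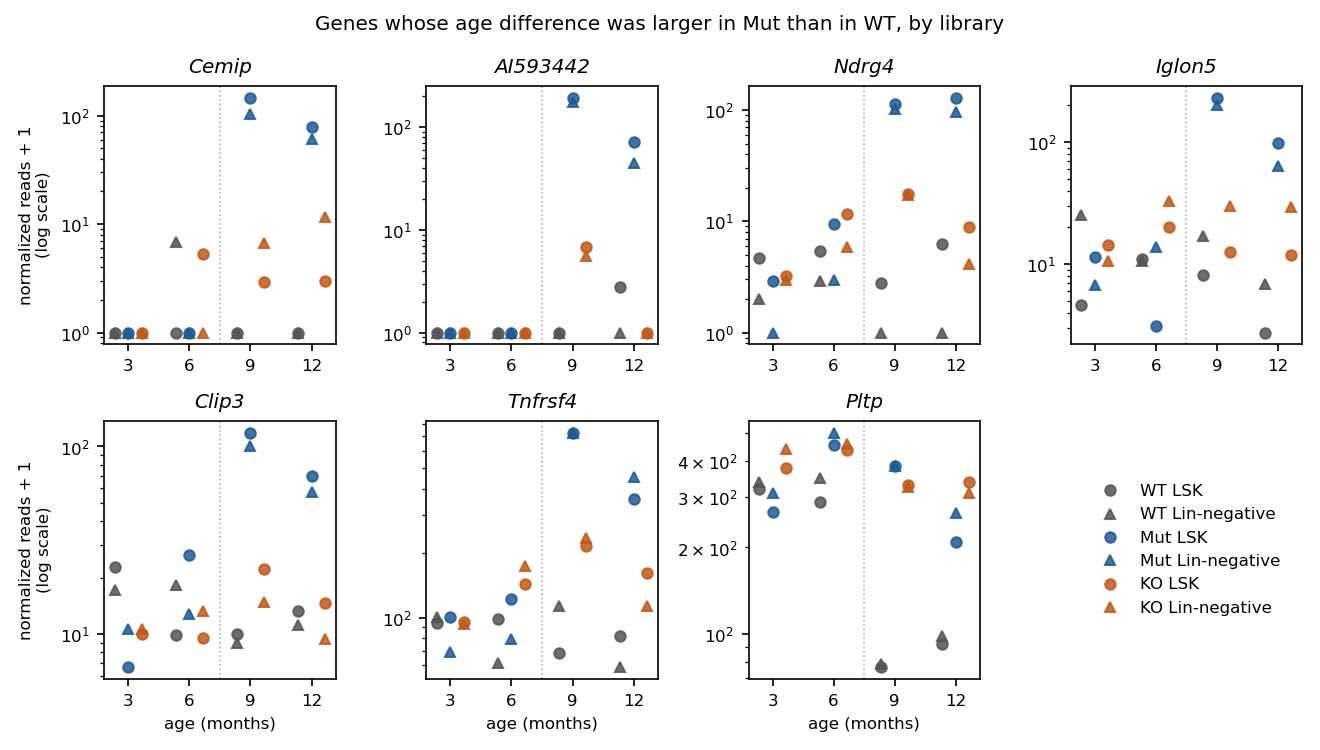
Normalized reads plus 1 (log scale) of the 7 genes in all 24 libraries, by age in months. Colours are genotypes (grey WT, blue Mut, orange KO), circles LSK and triangles Lin-negative libraries, and points at the same value overlap. In Cemip and AI593442 the 4 late Mut points lie above all other points, and in Pltp the late WT points lie lowest.

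No gene of the erythroid or plasma cell list passed this test between genotypes. Over all genes 0.0436% passed against WT and 0% against KO, so this says little about the lists. The erythroid list's median age change was 0.65 in WT, 0.44 in KO and 0.59 in Mut. For the plasma cell list it was 0.14, -0.41 and 0.29. The age change of Hbb-bt was 1.14 in WT and 1.08 in KO, each fitted within its genotype, and the Mut minus WT difference was 0.71 ± 0.52 (SE), adjusted p = 1. That of Jchain was 0.78 in WT and -0.14 in KO, and the Mut minus KO difference was 1.51 ± 0.50 (SE), adjusted p = 0.656. Of the B lymphoid list, 16 genes passed in WT, 15 in KO and 0 in Mut over both late ages. Over all genes 12.6%, 2.23% and 0.343% passed. The list's medians were -2.28, -2.51 and -1.37, so that they were below 0 in all 3 genotypes. For the Mut minus WT or the Mut minus KO difference 0 of its genes passed. Siglech fell in all 3 genotypes (-2.14 in WT and -2.83 in KO). Cd5l fell in WT (-2.42) and had a difference of 0.70 in KO (adjusted p = 0.372). Its Mut minus KO difference was -3.70 ± 0.71 (SE), adjusted p = 0.136.

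The age change was also compared between LSK and Lin-negative libraries of Mut mice. In limma's test of that difference 0 of 15755 genes passed (0%), with 43 at an unadjusted p under 0.05, and edgeR on recovered reads called 0 with 50. Each fraction had 2 libraries on a side, and the median standard error of the difference was 0.40 on the log2 scale. Differences of about this size were not detectable here. The test did not pair the 2 fractions of an age, so the spread between ages stayed in its error. It therefore cannot decide whether the age change differed between the fractions. The smallest unadjusted p among genes with a mean log2 level of at least 5 belonged to Zfp433, Ptprm and Hs6st2, with differences of 1.73, 2.50 and 3.72, and the smallest adjusted p of any gene was 0.99995.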

How the data were processed

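RNA sequencing of 24 marrow libraries was analysed, and 6 whole-genome bisulfite samples were not analysed here. The deposited values are a signal, read counts that the authors divided by a size factor for each library, as the values show, in 1 table. The submitters' processing notes list the genome build mm10 and, with no roles, the tools featureCounts, edgeR, STAR (2.7.3a) and Trim Galore (0.6.5). For strand, annotation and multiply mapping reads, the setting is not given in the sources used here. Low values are whole multiples of 1 read within 0.000001 reads, which was not claimed for the Lin-negative WT and Mut libraries at 9 months; the tests on recovered reads used those 2 libraries too. The description code of the LSK Mut library at 12 months differs from its title and genotype, which were used.

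Genes with at least 10 normalized reads in at least 4 libraries of a fit were tested on log2(value + 1) with limma 3.58.1 (R 4.3.3, trended empirical Bayes, Benjamini-Hochberg adjusted p under 0.05, fraction as a factor). A fold change on this scale understates the change of low genes. Late minus early was fitted on the 8 Mut libraries, and the genotype and separate-age comparisons with the same test. Alternatives were edgeR 4.0.16 and DESeq2 1.42.0 on recovered reads, other pseudocounts, filters, scaling and covariates, age as a block, single fractions and left-out libraries. Leaving out libraries in the separate-age comparisons was added after seeing the data. Calculations were tested on simulated data.

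Genes were named by rule: the 12 largest rises and falls past the threshold with a mean log2 level of at least 5, up to 5 members of each list, and the 5 largest or 3 smallest p elsewhere. Tet1, Tet2, Tet3 and a set of cell type markers were also planned, though not every marker is shown. Any other gene named, and the choice among the markers, came after the values were seen. The libraries compared and the gene lists were chosen with earlier results of these data known. RefSeq symbols matched 14703 of 16070 genes.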

Additional observations from a re-analysis of the deposited data

Results flagged for a closer look

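In 7 genes the age change of Mut differed from that of WT by limma's test of the difference (adjusted p under 0.05 over 16061 genes). The differences on the log2 scale were 7.21 for Cemip, 6.31 for AI593442, 5.96 for Ndrg4, 4.70 for Iglon5, 3.35 for Clip3, 2.73 for Tnfrsf4 and 1.61 for Pltp. edgeR called none of the 7.

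In 3 of 94 combinations of a gene and a side, 1 library lay far from the other 3 of its side, where chance gives about 1 in 20. Tnfsf11 was at 3.85 normalized reads in the early Lin-negative Mut library at 3 months, below the other early libraries. Akap6 was at 3.93 in the early Lin-negative library at 6 months, with 0 in the other 3. Tmem176a was at 1989 in the late Lin-negative library at 12 months, apart from the other 3 late libraries.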

How the results depend on the processing

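The 54 late minus early calls in Mut became 8 in limma without trend, 29 with a minimum of 50 normalized reads, 733 with DESeq2, 198 with all 24 libraries in the fit, 11 with age as a random block and 242 with an index of Y-linked genes as a covariate. They became 0 with the mean of both fractions per age, 0 with LSK libraries only and 0 with Lin-negative libraries only. They became 5, 35, 403 and 3301 without the libraries at 3, 6, 9 and 12 months, and 0 to 21 without single libraries. For the difference between fractions the count of 0 became 1 without the 6-month libraries and 0 to 1 without single libraries. For Mut minus WT the 7 calls became 19 with a pseudocount of 10, 0 with edgeR, 2, 0, 4 and 92 without the libraries at 3, 6, 9 and 12 months, 2 with the Y-linked index, 4 with only the 16 libraries of both genotypes, 0 with LSK libraries only, 0 with Lin-negative libraries only and 0 to 6 without single libraries. For Mut minus KO the count of 0 became 14 with a pseudocount of 10, 2 without trend, 16 without the 3-month and 5 without the 12-month libraries, and 0 to 2 without single libraries. Without trend, 2661 genes passed at 9 months, 203 at 12 months and 3040 between them. Without single libraries these counts were 898 to 5402, 266 to 2342 and 1448 to 5706. Of 1144 single-gene values of the late minus early comparison under these alternatives, 587 kept their side of the threshold, 545 lost it, 12 gained it and 0 changed direction. The smaller fits have fewer samples; the cause of the other changes was not tested. The labels give no replicate numbers, so libraries were paired by age only. This was done in the block above and in the comparison of LSK with Lin-negative libraries. The test of the fraction difference in the age change was not paired.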

Other observations

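Some genes were high at 9 months and at no other age. Nrn1, which encodes neuritin, was at 572 (LSK) and 598 (Lin-negative) normalized reads at 9 months and at 12.5 to 90.5 in the other 6 Mut libraries. Spon1, which encodes a spondin of the extracellular matrix, was at 836 and 717 at 9 months and at 22.6 to 112 elsewhere. Others were high at 12 months. Erfe, the erythroid hormone erythroferrone, was at 109 (LSK) and 124 (Lin-negative) normalized reads at 12 months and at 22.9 to 34.6 in the other 6. Podxl, a sialomucin of progenitors and endothelium, was at 18.9 and 27.8 at 9 months and at 250.2 to 284 at 12 months.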
